A study of Mus musculus with 2 samples.

Results

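Cytokines of the interleukin-6 (IL-6) family, their receptors, and the alarmin interleukin-33 (IL-33) were followed in mononuclear cells of a limb muscle and of the respiratory muscle of the mouse. The 9 genes were taken as a fixed list of symbols: the cytokines Il6, Lif, Clcf1 and Il33, and the receptor chains Il6ra, Il6st, Lifr, Osmr and Il11ra1. All 9 were among the 27998 genes counted in both libraries. The samples were the quadriceps and the diaphragm of C57BL/6J mice, with no treatment or allele named in the labels, and 10 mice are named for the whole experiment. Each muscle was digested with collagenase B and dispase II at 37 °C, cells were taken from a density interface and sorted as viable by light scatter, and the cells of several animals were combined into 1 droplet library per muscle. Muscle, library and digestion therefore cannot be told apart, no test across samples was possible, and every interval given is a 95% interval for counting error only.

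IL-6 family cytokines share gp130, the signalling chain encoded by Il6st. IL-6 and IL-11 first bind their own α-receptors (Il6ra and Il11ra1), LIF uses the LIF receptor (Lifr) with gp130, oncostatin M uses the oncostatin M receptor (Osmr) with gp130, and the assembled receptors activate JAK kinases and STAT3, whose target Socs3 feeds back on the receptor. IL-33 is kept in the nucleus, is released from damaged cells, and acts on cells that carry its receptor Il1rl1 (ST2) with the accessory chain Il1rap. In muscle, the fibro-adipogenic progenitors (FAPs), mesenchymal cells of the interstitium marked by Pdgfra, are known as a source of both IL-6 and IL-33.

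The 9 genes lie on 7 chromosomes of the GRCm38 build (mm10). Il6 spans chr5:30013114-30019981, Lif spans chr11:4257557-4272514, Clcf1 spans chr19:4214238-4223490 and Il33 spans chr19:29925114-29960718, all on the plus strand. Among the receptors, Il6ra (chr3:89864059-89913196) and Osmr (chr15:6813577-6874969) are on the minus strand, and Il6st (chr13:112464070-112510086), Lifr (chr15:7090614-7197489) and Il11ra1 (chr4:41699989-41769474) are on the plus strand. The counts of Il11ra1 are uncertain because reads shared with the near-identical Il11ra2 copies could be split or dropped. Exons of 3 members overlap those of another gene model, Il6ra with Gm42809 and Il11ra1 with Ccl27a on the opposite strand, and Clcf1 with AC109138.7 on the same strand. The sequence before the transcription start is shown for the 3 cytokine genes whose levels the results turn on, as RefSeq promoters on GRCm38.p6, 5′ to 3′ on the gene's own strand, with matches to the searched motifs in capitals.
Il6, chr5:30012864-30013113, plus strand: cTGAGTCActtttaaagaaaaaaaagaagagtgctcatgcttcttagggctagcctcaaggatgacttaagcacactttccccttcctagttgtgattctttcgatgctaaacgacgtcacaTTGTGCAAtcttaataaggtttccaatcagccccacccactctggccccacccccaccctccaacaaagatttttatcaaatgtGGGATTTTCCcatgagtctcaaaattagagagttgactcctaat
Lif, chr11:4257318-4257556, plus strand: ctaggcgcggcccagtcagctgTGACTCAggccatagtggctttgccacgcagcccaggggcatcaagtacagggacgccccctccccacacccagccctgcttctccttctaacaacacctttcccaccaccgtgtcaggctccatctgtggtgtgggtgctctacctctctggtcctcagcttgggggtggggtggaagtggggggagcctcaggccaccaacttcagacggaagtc
Il33, chr19:29924863-29925112, plus strand: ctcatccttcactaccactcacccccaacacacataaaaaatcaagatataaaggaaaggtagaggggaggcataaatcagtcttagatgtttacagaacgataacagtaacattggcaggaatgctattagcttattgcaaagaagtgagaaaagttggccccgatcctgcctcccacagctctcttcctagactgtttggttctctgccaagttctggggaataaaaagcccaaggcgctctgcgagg
Counted back from the RefSeq start, the Il6 window holds an AP-1 match TGAGTCA from -249 to -243, a C/EBP match TTGTGCAA from -128 to -121, and an NF-kB match GGGATTTTCC from -44 to -35. The Lif window, which is shown up to the first annotated exon, holds 1 AP-1 match, TGACTCA, from -228 to -222. The Il33 window shown holds none, and the second RefSeq window of Il33 (chr19:29945540-29945789, not shown) holds a C/EBP match, TTGCATAA, from -85 to -78. The motifs searched on both strands were AP-1 (TGANTCA, in 6.75% of 32851 promoters), NF-kB (GGG, then NN, then TTTCC, 1.41%), C/EBP (TTGCNNAA, 9.56%), CRE (TGACGTCA, 1.55%) and STAT (TTCNNNGAA, 7.02%). RefSeq windows of 8 of the 9 genes were in the table used, and those of Il6st, Il6ra, Lifr, Osmr and Il11ra1 held no match. These matches describe the letters of the windows and no binding was measured.

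The quadriceps library held 5159 barcodes and the diaphragm library 2499, with medians of 9719 and 11853 unique molecular identifiers (UMIs) per barcode, and the libraries shared 5 barcode sequences. Within the UMI limits, from 1000 UMIs up to an upper limit set per library, were 5010 and 2430 cells. FAPs were taken as cells with at least 1 Pdgfra and at least 50 Dcn UMIs, which gave 2339 quadriceps cells (46.7%) and 2008 diaphragm cells (82.6%), 4347 of 7440 in all. Levels are UMIs summed over the cells of a group per 1000000 of their UMIs (CPM), over 26559263 UMIs of quadriceps FAPs and 25876869 UMIs of diaphragm FAPs, with median depths of 10782 and 12572.5 UMIs per cell. The gated cells carried the FAP markers in both muscles, with Col3a1 at 7784 CPM in quadriceps and 7028 CPM in diaphragm and Cd34 at 1228 and 1242 CPM. All 10 listed FAP markers were detected and their summed level was 74298 CPM in quadriceps and 70630 CPM in diaphragm. Markers of other cells were not equally present in the gate. The summed tenocyte list was at 573 CPM in quadriceps and 1689 CPM in diaphragm (8 of 8 genes detected, 3 of them higher in diaphragm, Thbs4 foremost), the smooth muscle list at 2121 and 77.8 CPM, the mesothelial list at 7.27 and 97.5 CPM, of which Wt1 alone gave 92.6 CPM in diaphragm, and the macrophage list at 24.1 and 14.4 CPM. Across the 8724 genes at 10 CPM or more in FAPs of either muscle, the median diaphragm-to-quadriceps ratio was 0.926, and ratios ran from 0.57 at the 5th percentile to 1.57 at the 95th.

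Il6 was the member that differed most between the muscles. In quadriceps FAPs it was at 1.73 CPM (interval 1.27 to 2.31), with 46 UMIs in 23 of 2339 cells. In diaphragm FAPs it was at 31.5 CPM (29.4 to 33.8), with 816 UMIs in 204 of 2008 cells. The level in diaphragm FAPs was 18.2-fold higher (13.5 to 25.1). Of the 8 members at 10 CPM or more in either muscle, Il6 alone passed 2-fold in that direction, against 2.85% of all genes at that level, and none passed 2-fold higher in quadriceps, against 3.76%. Among genes at 50 CPM or more, a level that 5 members reached and none of them with a 2-fold difference, the shares were 3.72% and 3.17%. Few cells carried the message. In quadriceps the 10 cells with the most Il6 held 71.7% of its UMIs in FAPs, and in diaphragm 28.6%. At a common depth of 2000 UMIs per cell, 0.30% of quadriceps FAPs (0.12 to 0.62) and 3.24% of diaphragm FAPs (2.51 to 4.11) had an Il6 UMI. Lymphoid cells (T, B and NK cell-like), which were used to gauge free RNA, were at 0% and 0.90%. These rest on 0 of 401 quadriceps cells, which allows up to 0.748%, and 1 of 111 diaphragm cells (0.02 to 4.92). Both ranges include the FAP shares, so this gauge does not set the FAPs above it. The unthinned shares of FAPs were 0.983% and 10.2%. The summed level of 16 immediate early genes, which respond within minutes to stimulation and to tissue dissociation, was 3637 CPM in quadriceps FAPs and 18483 CPM in diaphragm FAPs, and that of 10 inflammatory companion genes was 452 and 1370 CPM. Their part in the Il6 difference was not tested.

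Lif, a cytokine that acts through Lifr and gp130, was also higher in diaphragm FAPs. It was at 5.95 CPM in quadriceps FAPs (5.06 to 6.95), with 158 UMIs in 143 cells, and at 10.2 CPM in diaphragm FAPs (9.01 to 11.5), with 264 UMIs in 222 cells. The ratio was 1.71 (1.40 to 2.10). At 2000 UMIs per cell 0.94% of quadriceps FAPs and 2.14% of diaphragm FAPs had a Lif UMI, with intervals of 0.59 to 1.42 and 1.55 to 2.87 that do not overlap. Lymphoid cells gave no background level here, since 0 of 401 quadriceps lymphoid cells had a Lif UMI, which allows a share of up to 0.748%, whereas diaphragm lymphoid cells were at 11.7%. Clcf1, which encodes a ligand of the CNTF receptor, was at 2.33 CPM (1.79 to 2.99) in quadriceps and 2.90 CPM (2.28 to 3.63) in diaphragm FAPs, and its ratio of 1.24 had an interval of 0.88 to 1.77 that includes 1. Its share of FAPs at 2000 UMIs was 0.77% and 0.70%, against 7.73% and 6.31% of lymphoid cells, which carried Clcf1 themselves and so gave no background level for it.

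**Figure D1:**
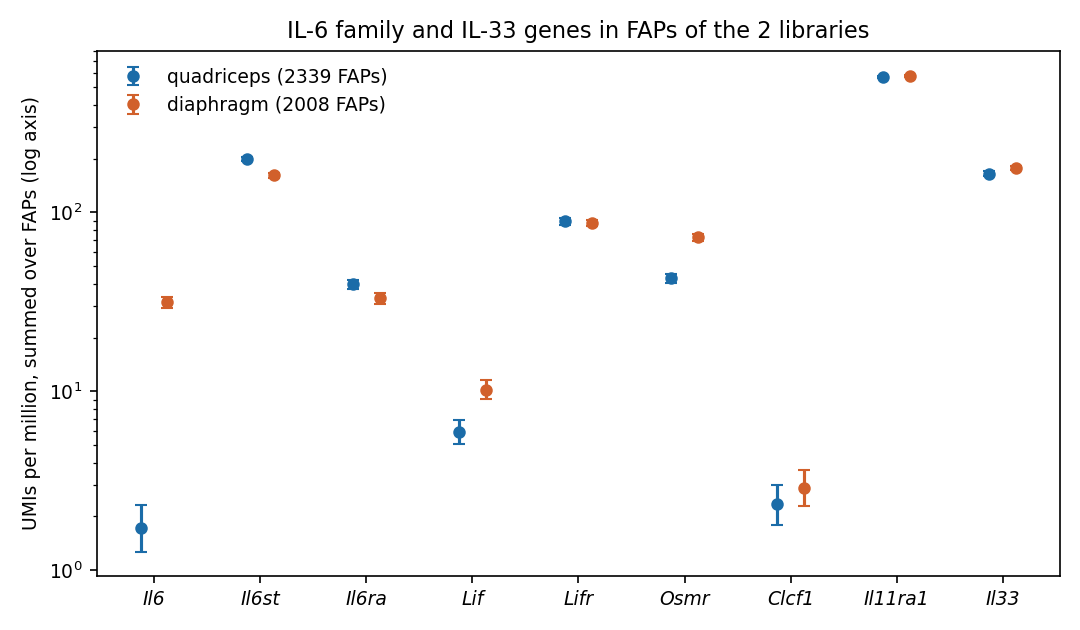
Level of each of the 9 genes in FAPs of the quadriceps (2339 cells, 1 library) and of the diaphragm (2008 cells, 1 library) in CPM on a logarithmic axis, with exact Poisson 95% intervals for counting error as bars. Il6 is the gene whose 2 points lie farthest apart, at 1.73 and 31.5 CPM, followed by Lif and Osmr, while Lifr, Il11ra1 and Il33 nearly coincide.

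Of the receptor chains, Osmr was higher in diaphragm FAPs. It stood at 42.8 CPM (40.4 to 45.4) in quadriceps and 72.7 CPM (69.4 to 76.0) in diaphragm FAPs, a ratio of 1.70 (1.57 to 1.83). Its share of cells at 2000 UMIs was 7.66% (6.61 to 8.81) against 13.9% (12.4 to 15.5), with 0.25% and 0% of lymphoid cells. The immediate early and inflammatory lists given beside Il6 were higher in the same diaphragm cells, and their part in the Lif and Osmr differences was not tested. Il6st, the shared signalling chain, went the other way, from 198 CPM (193 to 204) in quadriceps to 161 CPM (157 to 166) in diaphragm, a ratio of 0.81 (0.78 to 0.85), and 33.0% against 27.3% of cells had an Il6st UMI at 2000 UMIs. Il6ra, the IL-6 binding chain, was at 39.7 CPM (37.4 to 42.2) and 33.1 CPM (30.9 to 35.4), a ratio of 0.83 (0.76 to 0.91) that was 1.02 when cells of FAP-like clusters were taken in place of the gate. Its shares of FAPs, 7.06% and 6.18%, were close to those of lymphoid cells, 6.48% and 5.41%, which carry this receptor themselves. The ratios of Il6st and Il6ra are to be read beside the median of all genes, 0.926. Lifr was at 89.2 CPM in quadriceps and 87.2 CPM in diaphragm, a ratio of 0.98 (0.92 to 1.04) that was 1.498 with FAP-like clusters in place of the gate. Il11ra1, the α-chain for IL-11, was at 573 and 581 CPM, a ratio of 1.01 (0.99 to 1.04), and was found in 94.1% of quadriceps and 97.5% of diaphragm FAPs.

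Il33 was carried by many FAPs of both muscles. It was at 165 CPM (160 to 170) in quadriceps, with 4379 UMIs in 1246 cells, and at 177 CPM (172 to 182) in diaphragm, with 4583 UMIs in 1343 cells. The ratio was 1.07 (1.03 to 1.12), and 1.04 to 1.25 over the alternatives tried. At 2000 UMIs per cell the shares were 21.9% (20.2 to 23.6) and 25.9% (23.9 to 27.8), against 0.25% and 1.80% of lymphoid cells. Its UMIs were spread over cells differently from those of Il6. In diaphragm FAPs 375 cells had 1 Il33 UMI, 515 had 2 or 3, 338 had 4 to 7, 108 had 8 to 15 and 7 had 16 or more, with a highest value of 36. For Il6 the same counts were 90, 56, 28, 22 and 8 cells, with a highest value of 61. In quadriceps FAPs Il33 reached 33 UMIs in a cell and Il6 reached 12.

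**Figure D2:**
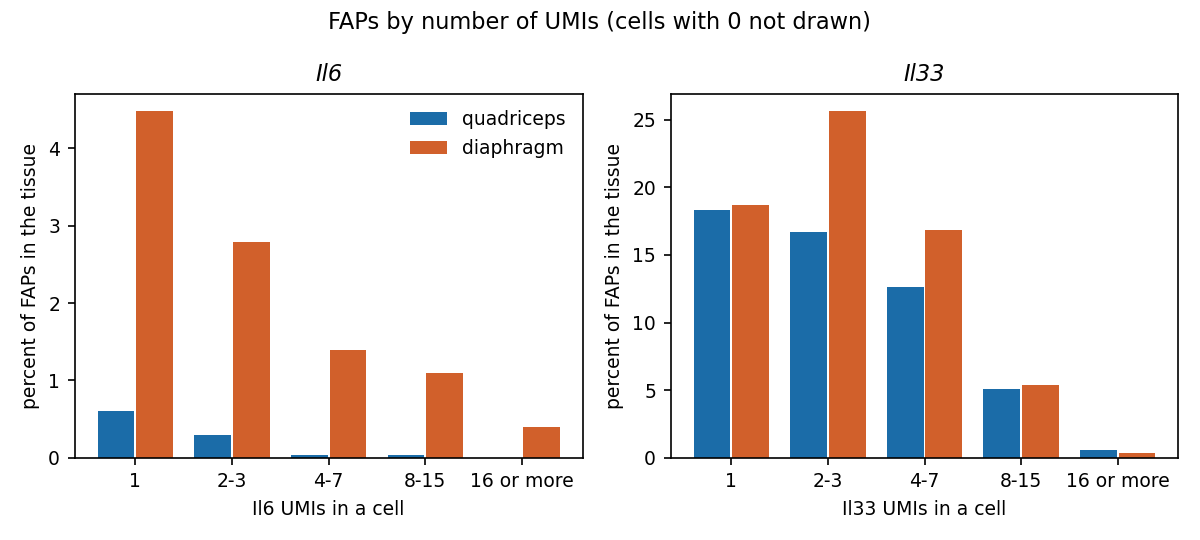
Share of FAPs, in percent, with a given number of Il6 or Il33 UMIs, by muscle (quadriceps 2339 cells, diaphragm 2008 cells, 1 library each). Il33 UMIs were found in 53.3% of quadriceps and 66.9% of diaphragm FAPs, and Il6 UMIs in 0.983% and 10.2%.

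The cells with Il6 UMIs differed from the other FAPs of their library in many further genes. In diaphragm, 204 FAPs with an Il6 UMI (median 13719.5 UMIs) had Socs3 at 1175 CPM, Tnfaip6 at 877 CPM, Has1 at 487 CPM and Cxcl1 at 801 CPM. The 1804 FAPs without one (median 12473 UMIs) had them at 342, 242, 111 and 255 CPM. Tnfaip6 and Has1 act in the hyaluronan matrix, and Cxcl1 is a chemokine that attracts neutrophils. Osmr was at 123 CPM in the first set and 66.4 CPM in the second, and Lif at 14.4 and 9.69 CPM, whereas Il33 was at 169 and 178 CPM. The immediate early list summed to 25904 CPM in cells with Il6 and 17564 CPM in cells without. In quadriceps the 23 cells with Il6 had Socs3 at 329 CPM and Fos at 2056 CPM, against 48.4 and 244 CPM in the others, and Cxcl1 at 376 against 40.4 CPM. Has1 (0 against 13.5 CPM), Tnfaip6 (54.2 against 64.4 CPM) and Lif (3.39 against 5.98 CPM) were not higher in these 23 cells. Il6 and Lif were found together in 31 diaphragm FAPs and in 1 quadriceps FAP. These sets were formed by the gene's own UMIs and are given as a description.

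Detection of gp130 together with its partner chains was compared in cells thinned to 5000 UMIs (2234 quadriceps and 1967 diaphragm FAPs). In quadriceps, Il6st was found in 61.8% of cells with an Osmr UMI and 61.7% of cells without, and in diaphragm in 55.7% and 55.3%. For Lifr the quadriceps shares were 62.6% and 61.3%, and the diaphragm shares 60.6% (56.4 to 64.6) and 53.3% (50.6 to 55.9). Osmr and Lifr, the receptor chains for oncostatin M and LIF, were found together more often. In quadriceps 25.8% of cells with Lifr had Osmr (22.4 to 29.4) against 14.5% of cells without Lifr (12.8 to 16.3), and in diaphragm 40.8% (36.8 to 45.0) against 21.1% (19.0 to 23.3).

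The other genes of the pathway were counted from lists, with a fold of 2 at 10 CPM or more as the mark. Of the IL-6 family ligands, Il6 alone passed 2-fold. Il11 and Ctf1 were at 1.996 and 1.36 CPM in quadriceps and 2.51 and 2.01 CPM in diaphragm, Osm gave 1 UMI in all FAPs, and Cntf and Ebi3 gave none. Of the family receptors, 6 reached 10 CPM and none passed 2-fold, with Cntfr at 24.7 and 29.9 CPM and Il27ra at 1.51 and 1.74 CPM. Each of the 3 Il11ra2 identifiers had 0 UMIs in FAPs. Among the JAK and STAT transducers 7 of 8 reached 10 CPM and none passed 2-fold. Stat3 was at 77.9 CPM in quadriceps and 111 CPM in diaphragm (ratio 1.43), Jak1 at 192 and 141 CPM (0.74), and Ptpn11, a phosphatase that gp130 recruits, at 55.6 and 47.9 CPM (0.86).

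Feedback and target genes of STAT3 were higher in diaphragm FAPs. Of 12 measured genes of this list 10 reached 10 CPM, and 6 of these passed 2-fold higher in diaphragm (Socs1, Socs3, Pim1, Bcl3, Junb and Myc) while none passed in quadriceps, with a median ratio of 2.27 against 0.926 over all genes at 10 CPM or more. Socs3, which blocks signalling at gp130, was at 51.5 CPM (48.8 to 54.3) in quadriceps and 434 CPM (426 to 442) in diaphragm, a ratio of 8.42 (7.96 to 8.91). Junb was at 282 and 2091 CPM (ratio 7.42), the kinase gene Pim1 at 16.8 and 66.8 CPM (3.98), Myc at 25.2 and 94.4 CPM (3.75), the transcription factor Cebpb at 248.5 and 436 CPM (1.76), Socs2 at 77.7 and 118 CPM (1.52), and the survival gene Mcl1 at 167 and 237 CPM (1.41). These genes also respond to other stimuli, and Junb stands in the immediate early list as well.

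Of the immediate early genes, 15 of 16 reached 10 CPM and all 15 passed 2-fold higher in diaphragm, with a median ratio of 5.80. Fos was at 264 CPM in quadriceps and 2690 CPM in diaphragm, Atf3 at 27.7 and 514 CPM, Egr1 at 410 and 2377 CPM, Jun at 635 and 3285 CPM, Jund at 997 and 2693 CPM, Dusp1 at 347 and 1256 CPM, Cyr61 at 203 and 822 CPM, and Btg2 at 99.6 and 791 CPM. Ier2 was at 150.3 and 539 CPM, Zfp36 at 77.8 and 537 CPM, Fosb at 34.9 and 307 CPM, Nr4a1 at 68.9 and 299.6 CPM, and Ier3 at 31.9 and 262 CPM. Of the 10 inflammatory companions 9 reached 10 CPM and 6 passed 2-fold higher in diaphragm. Cxcl1 was at 44.1 and 315 CPM, Has1 at 13.4 and 152 CPM, Tnfaip6 at 64.3 and 312 CPM, Ptgs2 at 20.7 and 106 CPM, Nfkbiz at 18.6 and 90.3 CPM, and Ccl7 at 35.1 and 78.3 CPM, whereas Nfkbia was at 142 and 208 CPM and Ccl2 at 103 and 89.5 CPM. The part of these lists in the Socs3 difference was not tested.

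**Figure D3:**
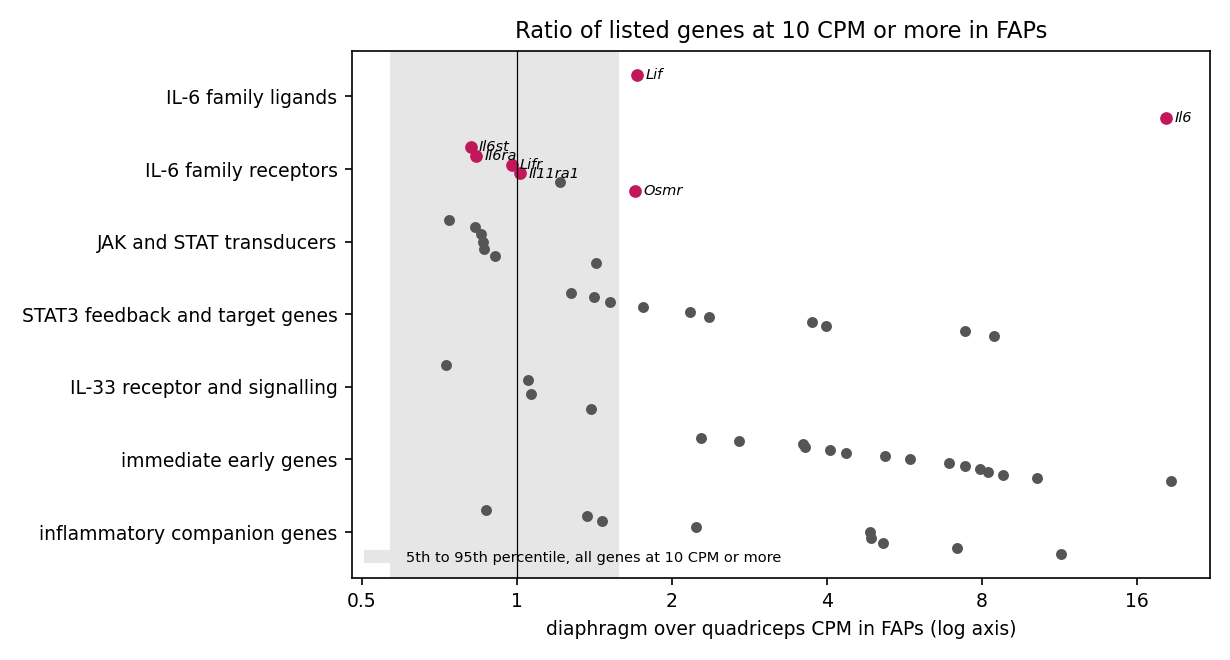
Ratio of the diaphragm to the quadriceps level in FAPs, on a logarithmic axis, with 1 point per gene of the pathway lists at 10 CPM or more (1 library per muscle), the members named and in red, and the 5th to 95th percentile of all genes shaded (0.57 to 1.57). All immediate early genes drawn lie beyond 2-fold on the side of the diaphragm with Il6 (18.2), whereas receptor chains and JAK and STAT transducers lie within 2-fold of 1.

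On the receiving side of IL-33, 4 of 8 receptor and signalling genes reached 10 CPM in FAPs and none passed 2-fold. Irak1, a kinase of this pathway, was at 88.9 CPM in quadriceps and 94.9 CPM in diaphragm, Myd88, its adaptor, at 24.0 and 33.5 CPM, and the accessory chain Il1rap at 14.8 and 15.6 CPM. Il1rl1, the receptor itself, was nearly absent from FAPs. It gave 10 UMIs in 10 quadriceps FAPs and 0 UMIs in 2008 diaphragm FAPs. None of the 6 IL-33 responder genes reached 10 CPM in FAPs.

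Each member was next compared between FAPs and all other cells of the same library. The other cells numbered 2671 in quadriceps (median 6619 UMIs) and 422 in diaphragm (median 4676 UMIs), and those of the diaphragm still held Dcn at 5495 CPM, so they were not free of FAP transcripts. In quadriceps 4 of the 6 members at 10 CPM or more were at least 2-fold higher in FAPs (Il6st, Osmr, Il11ra1 and Il33), against 19.4% of all genes. In diaphragm 2 of 9 were (Il11ra1 and Il33), against 9.53%, and 2 were at least 2-fold lower (Lif and Clcf1), against 13%. Il11ra1 and Il33 passed 2-fold in both muscles, against 7.7% of genes. Il33 was 7.30-fold higher in FAPs than in other cells in quadriceps and 3.01-fold in diaphragm, and Il11ra1 4.54-fold and 2.80-fold. Il6 in quadriceps had 46 UMIs in FAPs and 1 UMI in all other cells, a ratio of 41.9 with an interval of 7.15 to 1690, and in diaphragm its ratio was 1.77. Over cells within the UMI limits, FAPs held 97.9% of the Il6 UMIs in quadriceps and 94.8% in diaphragm, and 88.9% and 96.9% of the Il33 UMIs. Over all genes, FAPs held 26559263 of the 50854519 UMIs of the quadriceps library and 25876869 of the 28545242 UMIs of the diaphragm library. The diaphragm shares of Il6 and Il33 are to be read beside that high share of all UMIs. For Lif the ratio was 3.79 (2.64 to 5.55) in quadriceps and 0.33 (0.26 to 0.43) in diaphragm.

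Cells were also clustered within each library, and clusters were named from marker lists as resembling a cell type. The quadriceps gave B cell-like (216 cells), T cell-like (131), NK cell-like (79), Schwann cell-like (187), endothelial-like (59, led by Ccl21a, Mmrn1 and Lyve1), macrophage or monocyte-like (40), satellite cell-like (202), smooth muscle or pericyte-like (1236) and tenocyte-like (109) groups. The diaphragm gave B cell-like (47), T cell-like (72), mesothelial-like (12) and smooth muscle or pericyte-like (46) groups. Clusters with 307 quadriceps and 928 diaphragm cells were left unnamed, and 89 of the quadriceps FAPs and 779 of the diaphragm FAPs lay in them. Some gated FAPs also lay in named groups, so the FAP level and those levels share these cells. Levels of named groups rest on few cells outside the smooth muscle group.

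The cytokines had distinct carriers among FAPs and the named groups. Unnamed clusters, some with higher levels, are left out of these orders. Among the named quadriceps groups, Il6 was found as 3 UMIs in 1 of 40 macrophage or monocyte-like cells (9.36 CPM), a cell that also passed the FAP gate, and as 1 UMI in the tenocyte-like group (1.06 CPM), and the other groups had none. In diaphragm the order was FAPs at 31.5 CPM, smooth muscle or pericyte-like cells at 10.0 CPM (5 UMIs in 3 of 46 cells), mesothelial-like cells at 8.80 CPM (1 UMI) and T cell-like cells at 2.44 CPM (1 UMI). An unnamed diaphragm cluster of 11 cells, led by Retnla, Lyz2, H2-Ab1 and S100a9, was above them at 131 CPM (20 UMIs in 2 cells). Lif was highest in diaphragm T cell-like cells, at 156 CPM (120 to 199), with 64 UMIs in 16 of 72 cells, all of them in a single cluster of 47 cells. The next level was that of diaphragm FAPs, 10.2 CPM, and no other named group of that muscle had a Lif UMI. Quadriceps T cell-like cells had 2 Lif UMIs in 131 cells (3.04 CPM), and there FAPs at 5.95 CPM came first, with endothelial-like cells at 4.94 CPM, tenocyte-like cells at 3.18 CPM and satellite cell-like cells at 2.83 CPM. Clcf1 was higher in lymphoid groups than in FAPs. It was at 36.6 CPM (23.7 to 54.0) in quadriceps B cell-like cells, at 25.8 CPM in T cell-like, 25.4 CPM in NK cell-like and 24.5 CPM (16.01 to 35.9) in satellite cell-like cells, whose intervals overlap, and at 31.5 CPM in diaphragm B cell-like cells.

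**Figure D4:**
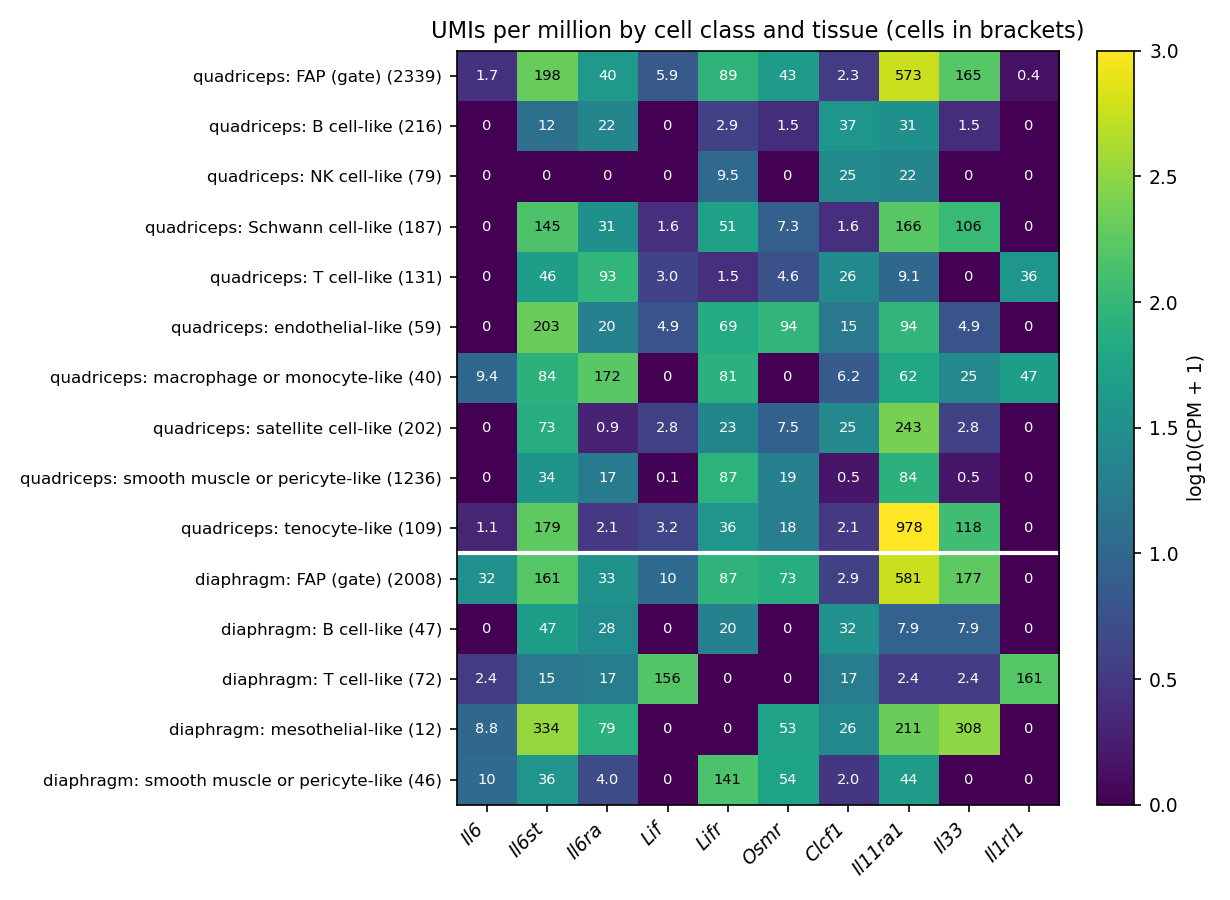
Level of the 9 genes and of Il1rl1, printed in CPM and coloured by log10(CPM + 1), in FAPs and in each named group of cells of the quadriceps and diaphragm libraries (1 library per muscle). Il33 and Il11ra1 stand high in FAPs of both muscles, Lif in diaphragm T cell-like cells (156 CPM), Il6ra in quadriceps macrophage or monocyte-like cells (172 CPM), and Clcf1 in lymphoid groups.

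The receptor chains were arranged over FAPs and the named groups as follows, with unnamed clusters left out. Il6ra was highest in quadriceps macrophage or monocyte-like cells, at 172 CPM (129 to 223), with 55 UMIs in 26 of 40 cells. T cell-like cells were next at 92.7 CPM (70.9 to 119), and FAPs at 39.7 CPM and Schwann cell-like cells at 31.0 CPM followed, while tenocyte-like and satellite cell-like cells were at 2.12 and 0.94 CPM. Il6st was at 203 CPM (145 to 275) in endothelial-like cells, 198 CPM in FAPs and 179 CPM (153 to 208) in tenocyte-like cells of the quadriceps, which do not differ beyond counting error, and at 34.3 CPM in smooth muscle or pericyte-like cells. In the diaphragm the 12 mesothelial-like cells were highest in Il6st at 334 CPM (237 to 459). Lifr in quadriceps was at 89.2 CPM in FAPs and 86.5 CPM (82.2 to 91.0) in smooth muscle or pericyte-like cells. On this scale they do not differ beyond counting error. CPM counts mitochondrial UMIs, whose median share was 17.3% in these smooth muscle or pericyte-like cells and 3.97% in quadriceps FAPs. Their Lifr levels without mitochondrial UMIs were not compared. In diaphragm the smooth muscle or pericyte-like cells were highest in Lifr at 141 CPM (110 to 178), above FAPs at 87.2 CPM. Osmr was at 93.9 CPM (56.5 to 147) in quadriceps endothelial-like cells, where it rested on 19 UMIs, followed by FAPs at 42.8 CPM and smooth muscle or pericyte-like cells at 19.2 CPM. In diaphragm Osmr was at 72.7 CPM in FAPs and 54.2 CPM (35.7 to 78.9) in smooth muscle or pericyte-like cells, and B and T cell-like cells had no Osmr UMI. Il11ra1 was highest in quadriceps tenocyte-like cells, at 978 CPM (916 to 1044) in 99 of 109 cells, above FAPs at 573 CPM and satellite cell-like cells at 243 CPM.

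Outside FAPs, Il33 was at 118 CPM in quadriceps tenocyte-like cells, 106 CPM in Schwann cell-like cells and 308 CPM (214 to 428) in the 12 diaphragm mesothelial-like cells, where 9 cells held 35 UMIs. Smooth muscle or pericyte-like cells were at 0.47 CPM in quadriceps and at 0 in diaphragm. All 22 Schwann cell-like cells with an Il33 UMI also had at least 50 UMIs of Dcn, the FAP gate gene, and 18 of the 22 lay outside the FAP gate. The 29 Schwann cell-like cells with at least 50 Dcn UMIs had Il33 at 279 CPM, Il6st at 271 CPM and Il11ra1 at 301 CPM. The 158 others had 0 Il33 UMIs, Il6st at 68.3 CPM and Il11ra1 at 84.1 CPM. Of the 111 Il33 UMIs of tenocyte-like cells, 45 were in cells outside the gate, and 22 of the 25 cells had at least 50 Dcn UMIs. Over the alternatives tried the Il33 level ran from 0 CPM (without the cells with at least 50 Dcn UMIs) to 209.7 CPM (at 5% mitochondrial UMIs or less, 25 cells, above FAPs) in Schwann cell-like cells and from 40.4 to 119 CPM in tenocyte-like cells. Il1rl1, the receptor, was found mainly in immune groups. In quadriceps it was at 46.8 CPM in macrophage or monocyte-like cells (15 UMIs in 9 of 40 cells) and 36.5 CPM in T cell-like cells (24 UMIs in 6 of 131 cells). A quadriceps FAP-like cluster led by Dmkn, Sbsn and Krtdap (177 cells, 135 in the gate) had 9 Il1rl1 UMIs in 9 cells (4.23 CPM). Each other quadriceps FAP-like cluster had 0 to 2 Il1rl1 UMIs. In diaphragm T cell-like cells it was at 161 CPM, with 66 UMIs in 16 of 72 cells, and these UMIs lay in the same cluster of 47 cells as those of Lif. That cluster was led by Cxcr6, Cd3g and Csf2, with Cd163l1, Il7r and Gata3 also among its leading genes. Only 3 of 6 T cell markers were raised in it, and Cd3e, a chain of the T cell receptor complex, was found in 25 of its 47 cells. It had Gata3, a regulator of type 2 lymphocytes, at 502 CPM and the IL-2 receptor chain Il2ra at 208 CPM. Areg was at 55.8 CPM (15 UMIs in 6 cells), Il5 at 26.02 CPM (7 UMIs in 4 cells) and Il13 at 3.72 CPM (1 UMI). The other T cell-like cluster of the diaphragm (25 cells, led by Vps37b, Lef1 and Ms4a4b, with 6 of 6 markers raised) had Gata3 at 63.8 CPM and no UMI of Il2ra, Areg, Il5 or Il13. With so few cells and UMIs, the Il5 and Il13 difference between the clusters was not tested. Foxp3, which marks regulatory T cells, was not found in either cluster. Quadriceps T cell-like cells had Gata3 at 62.3 CPM and Areg at 3.04 CPM.

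Within FAPs the members were followed over subclusters made from both libraries together, with each library centred. Subclusters 1 (led by C4b, Apoe and Gdf10), 2 (Cxcl14, Hsd11b1 and Mme), 3 (Stmn4, Cmah and Efhd1), 4 (Clu, Prg4 and Meox1) and 5 (Thbs4, Fmod and the tenocyte gene Tnmd) held at least 50 cells of each muscle. Subcluster 6 (Dmkn and Sbsn) had 245 quadriceps and 7 diaphragm cells, and subcluster 9, led by Krtdap, Sbsn and Dmkn, had 2 and 55. The clusters were made without the members, the pathway genes or mitochondrial genes. Lifr varied most among the receptors. In quadriceps it ran from 255 CPM in subcluster 2 to 15.99 CPM in subcluster 6, a 15.9-fold range (12.0 to 21.7), and in diaphragm from 183 CPM in subcluster 2 to 9.47 CPM in subcluster 5, a 19.4-fold range (15.003 to 25.4). Il6ra ran from 84.5 CPM in subcluster 6 to 13.9 CPM in subcluster 4 in quadriceps, and from 94.5 CPM in subcluster 9 to 10.7 CPM in subcluster 5 in diaphragm. Il11ra1 was lowest in the same Dmkn and Sbsn cells, at 254 CPM in quadriceps subcluster 6 and 173 CPM in diaphragm subcluster 9. Il6st ranged least, 1.97-fold in quadriceps, where subcluster 10 was lowest, and 1.41-fold in diaphragm. Il33 ran from 644 CPM (subcluster 7, led by Angptl7, Spp1 and Apod) to 56.6 CPM (subcluster 10) in quadriceps. In diaphragm Il33 ran from 292 to 99.0 CPM. Subcluster 10 was led by the smooth muscle genes Tagln, Acta2 and Myh11 and had 55 quadriceps and 0 diaphragm cells. Its median depth was 23918 UMIs, with 11.3% mitochondrial UMIs. Whether it holds mixtures of FAPs and smooth muscle cells was not tested.

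Il6 in diaphragm FAPs was unevenly placed. It was at 191 CPM (162 to 224) in subcluster 9, at 45.7, 41.6, 21.7 and 16.04 CPM in subclusters 2, 1, 4 and 3, and at 4.21 CPM in subcluster 5. Subcluster 9 also had Tnfaip6 at 1899 CPM, Has1 at 1029 CPM and Socs3 at 1142 CPM. In subclusters 1 to 4 Il6 was higher in diaphragm. The ratio was 12.1 (6.64 to 24.4) in subcluster 1, 17.4 in subcluster 2, 31.3 in subcluster 3 and 7.56 in subcluster 4. In subcluster 5 there were 0 UMIs in 63 quadriceps cells and 28 UMIs in 502 diaphragm cells, and the interval of the ratio, from 0.926 upward, includes 1. Lif was higher in diaphragm in all 5 subclusters, with ratios of 1.67 to 2.87, of which 4 had intervals above 1. Osmr was higher in subclusters 1 to 4 (1.61, 1.75, 2.35 and 1.41), and its ratio in subcluster 5 was 0.91. Il6st was lower in diaphragm in all 5, at 0.72 to 0.89.

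**Figure D5:**
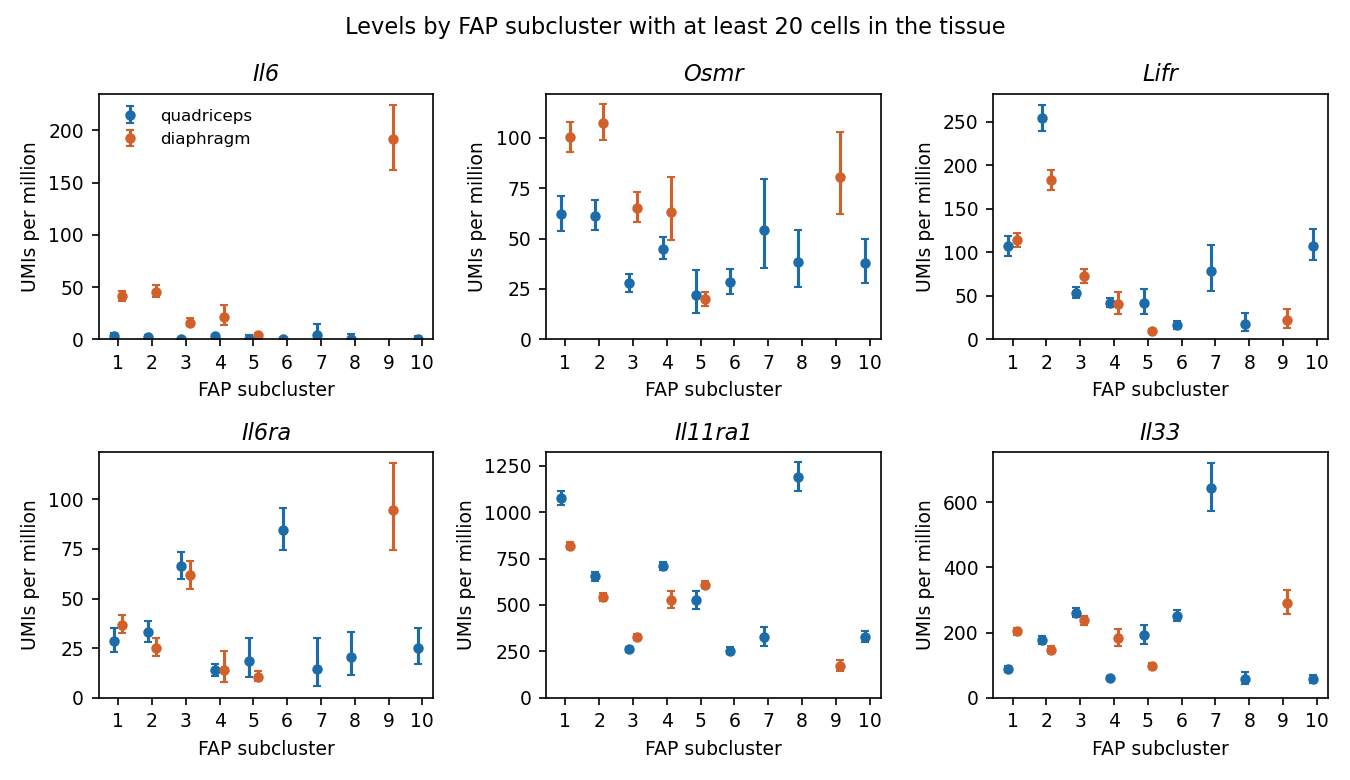
Level of Il6, Osmr, Lifr, Il6ra, Il11ra1 and Il33, in CPM, in each FAP subcluster with at least 20 cells in that muscle, in the quadriceps and diaphragm libraries, with exact Poisson 95% intervals for counting error. Il6 peaks in diaphragm subcluster 9 (191 CPM), Lifr in subcluster 2 of both muscles (255 and 183 CPM), and Il11ra1 is lowest in quadriceps subcluster 6 and diaphragm subcluster 9.

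For Il33, Lifr and Il11ra1, muscles that were alike over all FAPs differed within subclusters. Il33 was at 88.1 CPM in quadriceps and 204 CPM in diaphragm in subcluster 1 (ratio 2.32) and at 61.2 and 184 CPM in subcluster 4 (3.01). It was at 193 and 99.0 CPM in subcluster 5 (0.51), and its ratios in subclusters 2 and 3 were 0.83 and 0.91. Lifr ratios were 1.07, 0.72, 1.36, 0.97 and 0.23 in subclusters 1 to 5. Il11ra1 ratios were 0.76, 0.83, 1.26, 0.74 and 1.16 in the same order, and none of their intervals includes 1. Subcluster 5, with the tenocyte genes, held 502 diaphragm and 63 quadriceps FAPs, so it weighed more on the diaphragm level. Without it the ratio of Lifr over FAPs was 1.26, that of Il33 1.25, that of Osmr 2.09, that of Il6st 0.86 and that of Il6ra 1.01, all against the values given above for FAPs as a whole.

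The genes with the most similar levels over 14 pairs of a cell group and a muscle, among 6762 genes at 50 CPM or more in a pair, were ranked by Pearson's r of log2(CPM + 1). The 14 points share 2 libraries and differ in depth, so r is given as a description. Il6 was closest to Hmox1 (0.74), Ptgs2 (0.71) and Ier3 (0.71), and Lif to Tmem64 (0.86), Nrip1 (0.83) and Il17a (0.80). Clcf1 was closest to Gltscr2 (0.92), Dhx9 (0.91) and Taf1d (0.91). Among the receptors Il6st was closest to Tspan31 (0.94), Sbf2 (0.93) and Ext1 (0.92), Il6ra to Ifi27l2a (0.75), Uggt1 (0.75) and Fam21 (0.74), Lifr to Ap2a1 (0.95), Ptms (0.93) and Cpne2 (0.93), Osmr to Cyth3 (0.96), Tspan9 (0.93) and Hspb8 (0.92), and Il11ra1 to Serping1 (0.97), Ltbp3 (0.97) and Mxra7 (0.96). Il33 was closest to Nid1, Adgrd1 and Pla2g4a, each at 0.94.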

How the data were processed

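Mononuclear cells of quadriceps and diaphragm (1 library each) were profiled with a droplet 3′ kit. The authors made the deposited UMI counts with Cell Ranger 3.0.0 on mm10 and analysed them in Seurat. These raw counts were used here. A limit of 5% mitochondrial UMIs, which the study states for its human cells and as which its mouse limit was read here (the printed mouse value being taken as a fraction), leaves 3833 of the 7440 cells within the UMI limits (at least 1000 UMIs, at most 3 scaled median absolute deviations above the log10 median). It served as an alternative, and no mitochondrial limit was set in the main analysis. FAPs were gated at 1 Pdgfra and 50 Dcn UMIs, and UMIs were summed per group. CPM intervals are exact Poisson, ratios exact conditional binomial and shares Clopper-Pearson. Shares were taken after thinning each cell to 2000 UMIs, which left out 1 quadriceps FAP and 24 quadriceps and 8 diaphragm lymphoid cells. Before thinning, with no cell left out, the lymphoid medians were 3532 and 5158 UMIs, against 10782 and 12572.5 in FAPs. Total depth was 50854519 UMIs in quadriceps and 28545242 in diaphragm. PCR duplicates were already collapsed by UMI.

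Cells were clustered per library with scikit-learn 1.9.0, igraph 0.11.9 and leidenalg 0.10.2 (2000 variable genes, 10 components, 20 neighbours, resolution 1, and 0.5 for FAP subclusters). Members, mitochondrial genes and the genes of the IL-6 family, JAK and STAT, STAT3 target and IL-33 lists were left out. The immediate early and inflammatory companion lists, apart from Junb, were left out for the FAP subclusters only. The rule for naming clusters was set after the clusters were seen. Scrublet, run in scanpy 1.11.5, marked 98 quadriceps barcodes (1.90%) and 4 diaphragm barcodes (0.160%), so it had not worked in the diaphragm, and no doublets were removed. With 1 library per muscle no sample test was run. The interval scripts were tested on simulated data (Python 3.11.15, numpy 2.4.6, scipy 1.17.1).

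The members and gene lists were chosen with earlier results of these data known. The text names every member, list genes at 50 CPM or more in FAPs of either muscle (and a few below it, named after their values were seen), and for each member the 3 genes with the highest Pearson r. Il11ra2 (3 identifiers) and Cebpd were not summed in the lists. Gene positions are from GENCODE M21 and promoters from RefSeq. Some list and marker genes are not reported here.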

Additional observations from a re-analysis of the deposited data

Results flagged for a closer look

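Lif went in opposite directions in the 2 muscles when FAPs were set against all other cells of the same library. It was 3.79-fold higher in FAPs in quadriceps and at 0.331 of the other cells' level in diaphragm. The difference between the muscles was not tested, since each had 1 library. In diaphragm 64 of the Lif UMIs outside FAPs lay in 16 T cell-like cells of a single cluster.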

How the results depend on the processing

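Each muscle was 1 library of pooled mice, so animals cannot be separated and leaving out a replicate was not possible. No paired analysis was possible because the result comes from no test and each muscle had 1 library. Over the 13 alternatives tried, some added after seeing the data, the FAP ratio of Il6 ran from 13.7 to 25.1, that of Lif from 1.58 to 2.08 and that of Osmr from 1.63 to 2.26. With cells of FAP-like clusters in place of the gate the ratios were Il6 25.1, Osmr 2.26, Lifr 1.498, Il33 1.22, Il6ra 1.02, Il6st 0.87 and Clcf1 0.87. At 5% mitochondrial UMIs or less Il11ra1 was 0.98. With equal weights for subclusters 1 to 5, Il6ra was 0.93, Il11ra1 0.88 and Lifr 0.84. Leaving out FAPs with at least 2 Tnmd UMIs gave Osmr 1.86, Il33 1.14 and Lifr 1.07, and leaving out subcluster 5 gave Osmr 2.09, Lifr 1.26, Il33 1.25, Il6ra 1.01 and Il6st 0.86. The cause was not tested. Il6ra, Clcf1, Lifr and Il11ra1 thus keep no fixed direction. The number of genes past 2-fold was 123 higher in diaphragm and 105 in quadriceps at 50 CPM, 249 and 328 at 10 CPM, and 2219 and 2888 with no filter. STAT3 targets past 2-fold numbered 5 to 7 and immediate early genes 15 throughout. The group with the highest level was the same for 18 of 18 gene and muscle pairs at clustering resolutions 0.5 and 2, for 14 with both libraries clustered together and for 11 at 5% mitochondrial UMIs, where several groups were lost. Lif in diaphragm T cell-like cells ran from 134 to 390 CPM.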

Other observations

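Some clusters without a name carried members. An unnamed diaphragm cluster of 11 cells, led by Retnla, Lyz2, H2-Ab1 and S100a9, had 20 Il6 UMIs in 2 cells (131 CPM), 12 Il1rl1 UMIs in 7 cells (78.7 CPM), 9 Osm UMIs in 5 cells and 18 Areg UMIs in 1 cell. An unnamed quadriceps cluster of 41 cells, led by Lyz2, S100a9 and S100a8, had 43 UMIs of Osm, the gene of oncostatin M, in 11 cells (137 CPM). It had Il6ra at 242 CPM and 11 Lif UMIs in 5 cells (35.1 CPM). An unnamed quadriceps cluster of 97 cells, led by Apod, Myog and Angptl7, had Il33 at 516 CPM.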
